A study of Homo sapiens with 2 samples.

Results

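The interferon regulatory factors (IRFs) IRF1, IRF2, IRF3, IRF4, IRF5, IRF8 and IRF9, together with the leucine zipper factor BATF2, were examined for a difference in transcript level after T-bet was targeted with an siRNA. The 8 genes were taken by symbol from the platform annotation and are 8 of 19775 genes on the array. They are read by 13 of its 54675 probe sets, and 1 further probe set, assigned jointly to IRF9 and another gene, was left out. The cells were KG1, a human acute myeloid leukaemia line that resembles early myeloid progenitors. One group, siRNA-Tbet, had been electroporated with 1.98 µg of siRNA against T-bet, and the other, siRNAc, with 1.98 µg of a control siRNA. Cells of both groups rested for 5 h and then received interleukin-18 (IL-18) at 10 ng/ml for 12 h, so the comparison holds no unstimulated cells. Each group is 1 array of this single line, and no difference below has a replicate check, an error from replicates or a p-value.

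IRFs bind interferon-stimulated response elements in DNA through a shared domain with a tryptophan repeat. IRF3 and IRF5 lie dormant until sensors of foreign nucleic acid trigger their phosphorylation, while IRF1 is itself induced by interferon-γ through a STAT site in its promoter and IRF9 carries the type I interferon signal to DNA as part of the complex ISGF3. IRF4 and IRF8 work mostly with partners such as PU.1 and shape lymphocyte, monocyte and dendritic cell fates. T-bet, the product of TBX21, directs type 1 immunity, and the interferon-γ gene is its classic target.

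The promoters of IRF1 and IRF9 are shown because each holds the short palindrome that activated STAT dimers recognise, the gamma-activated sequence (GAS, searched on both strands as TTCNNNGAA and set in capitals). The sequences are RefSeq windows of build GRCh38.p14 that run from 250 bases before to 50 bases after the annotated gene start. The IRF1 window lies on the minus strand at chr5:132490724-132491023 and the GAS begins 124 bases before the start. The IRF9 window lies on the plus strand at chr14:24161015-24161314 and the GAS begins 63 bases before the start.
IRF1: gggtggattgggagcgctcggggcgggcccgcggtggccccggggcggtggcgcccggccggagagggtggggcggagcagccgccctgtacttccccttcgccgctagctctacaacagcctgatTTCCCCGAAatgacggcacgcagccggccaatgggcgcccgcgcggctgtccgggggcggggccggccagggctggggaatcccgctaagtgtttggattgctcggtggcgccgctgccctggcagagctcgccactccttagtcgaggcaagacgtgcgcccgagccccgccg
IRF9: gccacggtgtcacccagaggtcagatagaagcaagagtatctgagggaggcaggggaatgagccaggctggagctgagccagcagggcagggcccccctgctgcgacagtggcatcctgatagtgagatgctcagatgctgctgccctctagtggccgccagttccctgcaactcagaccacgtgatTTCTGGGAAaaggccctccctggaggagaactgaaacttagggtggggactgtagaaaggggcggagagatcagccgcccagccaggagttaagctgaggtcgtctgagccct

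Of the 8 genes, 6 had at least 1 such window and 10 windows in all, of which those of IRF1, IRF4 and IRF9 lie at the annotated gene start and those of IRF5, IRF8 and BATF2 at other starts. The GAS letters were found in windows of 2 of the 6 genes, IRF1 and IRF9, and in 7.66% of all 35116 windows. The core of the interferon-stimulated response element (ISRE), searched on both strands as GAAANNGAAA, was in windows of 0 of the 6 genes and in 3.57% of all windows. The T-box half-site, searched on both strands as GGTGTGA, was in windows of 0 of the 6 genes and in 3.45% of all windows. Each of the 6 genes counted if any of its windows held a match, so these counts and the shares of windows differ in unit. With 1 window per gene, at the annotated gene start, the shares were 7.94% for the GAS, 3.67% for the ISRE core and 3.40% for the T-box half-site. A match is a run of letters and not a measured binding site.

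Knockdown of the target itself was read first. TBX21 read 1839 in siRNA-Tbet cells and 3581 in siRNAc cells, so 51.3% of the control signal was left. IFNG, which encodes interferon-γ, had 31243 with siRNA-Tbet and 35136 with siRNAc. Signals are in arbitrary MAS5 units, and they cannot be compared between probe sets. Array medians were 144 for siRNA-Tbet and 146 for siRNAc, and a gene counted as measured when it lay above the median on at least 1 array, as 12164 genes did. Of the markers of a KG1-like progenitor, CD34, SPI1, ANPEP, HLA-DRA and GATA2 lay above the array medians, 5 of the 6 tested, and KIT was below with 61.6 for siRNA-Tbet and 28.9 for siRNAc. The 5 were not equal on the arrays, as ANPEP was lower and 4 were higher with siRNA-Tbet. GATA2 differed most, with 15712 for siRNA-Tbet and 11483 for siRNAc, or 36.8% higher, and 3 of its 3 probe sets were higher. Of the 10 analysed markers of B, T, epithelial, monocytic and plasmacytoid dendritic cells, 2 lay above the medians on both arrays. They were CD79A, with 528 for siRNA-Tbet and 530 for siRNAc, and CD3E, with 250 for siRNA-Tbet and 211 for siRNAc, while the monocyte marker CD14 had 4.54 with siRNA-Tbet and 6.34 with siRNAc. KRT18, with 235 for siRNA-Tbet and 113 for siRNAc, and MS4A1, with 140 for siRNA-Tbet and 225 for siRNAc, each lay above the median on 1 array only.

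All 8 genes were measured, and their transcripts differed little between the arrays. With siRNA-Tbet, BATF2 and IRF8 were lower by 29.7% and 22.8%, IRF2 and IRF1 were lower by 14.2% and 9.67%, IRF9 and IRF5 differed by less than 2%, and IRF3 and IRF4 were higher by 6.41% and 5.73%. In all, 6 were lower and 2 were higher (5 and 3 after median scaling or quantile normalization, where IRF5 changed sign), with a median log2 ratio of siRNA-Tbet over siRNAc of -0.085. That median was -0.022 with each gene's median over its probe sets and -0.023 with values floored at the 75th percentile of the array, which leaves 7 of the genes. Over all measured genes 53.7% were lower, with a median of -0.018. Genes were counted when siRNA-Tbet was at least 20% lower or at least 25% higher than siRNAc, which are the same fold in either direction and are called here the counting threshold. It was passed on the lower side by 2 of the 8, BATF2 and IRF8, or 25%, against 11.0% of all measured genes. On the higher side it was passed by 0 of the 8, against 7.65% of all measured genes. A 1.5-fold difference was reached by 0 of the 8 in either direction, against 2.96% of all measured genes on the lower side and 1.96% on the higher side. Counts this small set nothing apart from the other genes. In total RNA from a culture, less RNA per cell and fewer cells that express a gene cannot be told apart.

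**Figure D1:**
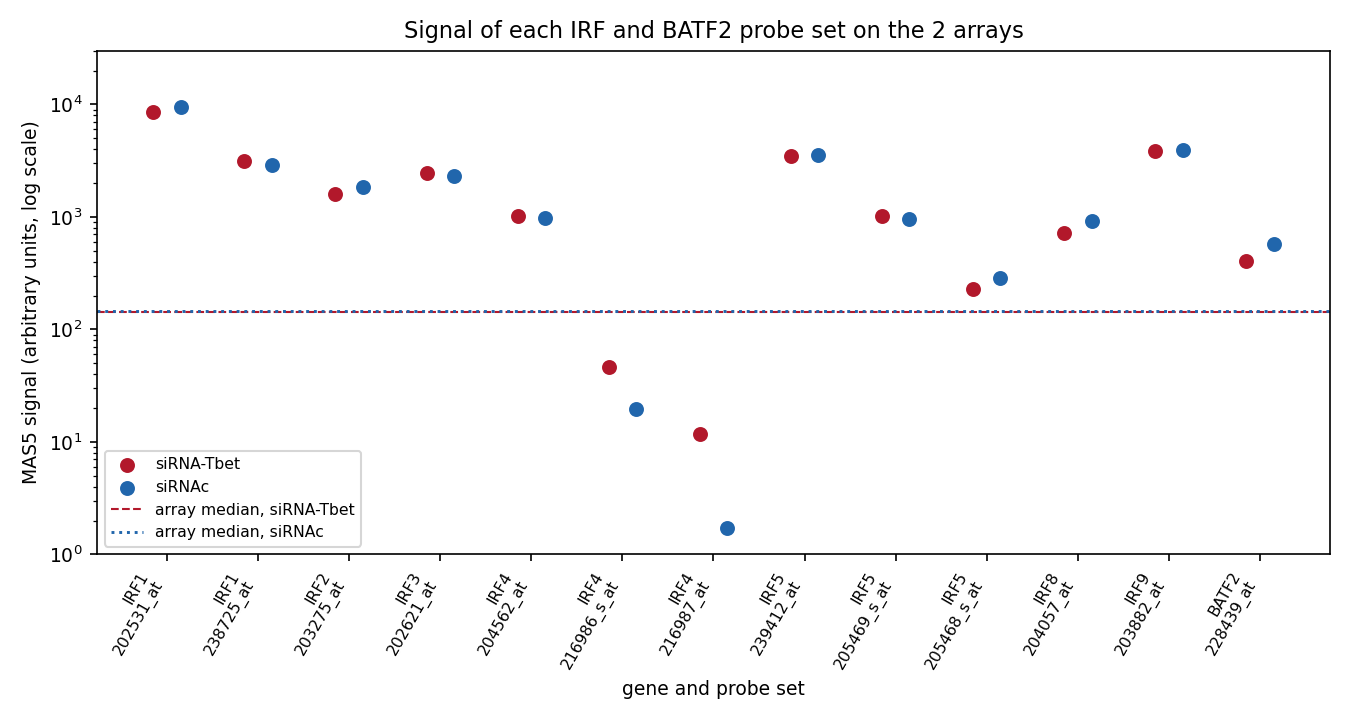
MAS5 signal (arbitrary units, log scale) of the 13 probe sets of the IRF genes and BATF2 on the siRNA-Tbet array (red) and the siRNAc array (blue), 1 point per array, with the array medians of 144 and 146 as lines. The points of a pair lie close together for the 11 probe sets above the medians, and 2 IRF4 probe sets lie below them on both arrays.

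As there are no replicate arrays, disagreement among probe sets that read one gene served as a measure of technical noise. For the 6155 genes with 2 or more measured probe sets, the log2 ratio of the second brightest was subtracted from that of the brightest, and the SD of these differences within each of 10 bins of signal was divided by the square root of 2. It ran between 0.12 in the brightest bin and 0.41 in the dimmest, and it holds nothing of the variation between cultures, RNA preparations or arrays. The log2 ratios of IRF3, IRF4, IRF5 and IRF9 lay within 1 such SD of 0. Those of BATF2, IRF8, IRF1 and IRF2 lay beyond 1 SD, and 0 of the 8 lay beyond 2. The order of the 8 ratios is thus loose. In none of the 7 steps between neighbours in the order BATF2, IRF8, IRF2, IRF1, IRF9, IRF5, IRF4, IRF3 was the gap larger than its own technical SD. The ends of that order were 0.60 apart on the log2 scale, with a technical SD of 0.38 for the difference.

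IRF1, the interferon-γ-induced activator, and IRF2, which competes with IRF1 for the same DNA elements, were both slightly lower on the probe set used for the gene. IRF1 is read by 2 probe sets. The brighter, built on its RefSeq transcript, read 8589 in siRNA-Tbet cells and 9508 in siRNAc cells, a log2 ratio of -0.15 with a technical SD of 0.12. Among the 1216 genes of like signal, 188 had a lower ratio. The dimmer, built on an expressed sequence tag, was on the other side, with 3142 for siRNA-Tbet and 2919 for siRNAc and a log2 ratio of 0.11. The gap of 0.25 between them exceeds its technical SD of 0.21, so the direction of IRF1 depends on the probe set, and the mean of the pair is -0.020. The only probe sets of IRF8 and BATF2 and the chosen one of IRF5 are also built on expressed sequence tags. IRF2 is read by a single probe set, with 1595 for siRNA-Tbet and 1860 for siRNAc. Its log2 ratio of -0.22 was close to its technical SD of 0.21, and 203 of the 1216 genes of like signal had a lower one.

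IRF3 and IRF5, the factors that wait for a sensor signal, showed no common direction. IRF3, with 1 probe set, had 2454 with siRNA-Tbet and 2307 with siRNAc, a log2 ratio of 0.090 with a technical SD of 0.18. IRF5 is read by 3 probe sets. The brightest had 3512 with siRNA-Tbet and 3546 with siRNAc, a log2 ratio of -0.014, and this sign turned positive after median scaling and after quantile normalization. The other IRF5 probe sets had 1015 against 965 (siRNA-Tbet against siRNAc, log2 ratio 0.072) and 230 against 286 (log2 ratio -0.31). The 3 ratios averaged -0.084 with an SD of 0.20 across probe sets, which read 1 RNA sample and are not replicates. The lowest of them comes from a dim probe set whose technical SD of 0.41 is larger than its ratio.

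IRF9, the DNA-binding subunit of ISGF3, was nearly equal on the arrays. It read 3890 in siRNA-Tbet cells and 3952 in siRNAc cells, a log2 ratio of -0.023 with a technical SD of 0.15. Of the 1216 genes of like signal, 642 had a lower ratio, which places IRF9 near their middle.

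The lineage factors IRF4 and IRF8 lay on opposite sides of 0. IRF8, which drives monocyte and dendritic cell development, had 713 with siRNA-Tbet and 924 with siRNAc on its only probe set. This is 1.30-fold lower, a log2 ratio of -0.37 with a technical SD of 0.26. Of the 1217 genes of like signal, 136 had a lower ratio, and 15.0% passed the counting threshold on the lower side. IRF4, best known from plasma cells and activated lymphocytes, had 1028 with siRNA-Tbet and 972 with siRNAc on the 1 measured probe set of its 3. Its log2 ratio was 0.080 with a technical SD of 0.26. The other IRF4 probe sets were below the array medians, with 46.2 and 11.8 for siRNA-Tbet and 19.5 and 1.72 for siRNAc, and no ratio was taken from them.

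BATF2, a leucine zipper factor that pairs with JUN proteins and acts with IRF1 in mouse macrophages, had the lowest ratio of the 8. Its only probe set read 405 in siRNA-Tbet cells and 576 in siRNAc cells, 1.42-fold lower, with a log2 ratio of -0.51 and a technical SD of 0.34. Such ratios are common at this signal. Of the 1216 genes of like signal, 101 had a lower ratio, 20.1% passed the counting threshold on the lower side and 13.8% on the higher side.

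**Figure D2:**
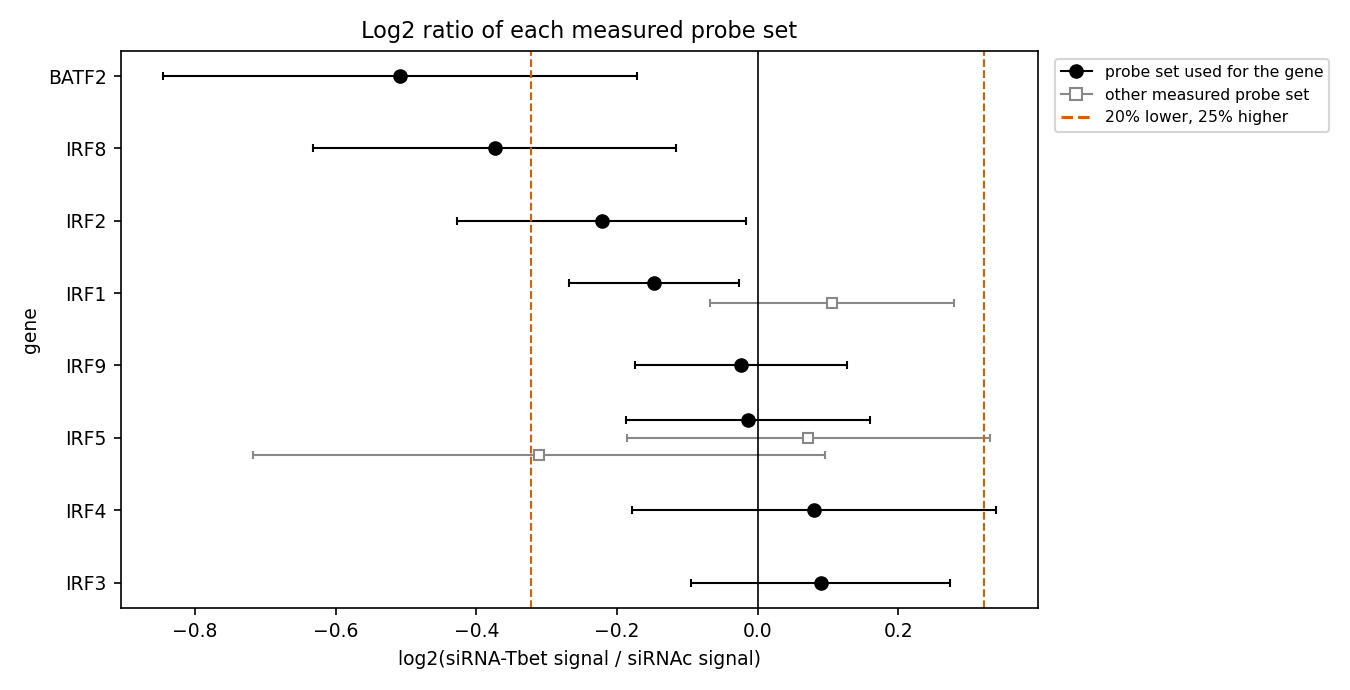
Log2 ratio of siRNA-Tbet over siRNAc for the 11 measured probe sets, with bars of 1 technical SD, the gene's chosen probe set as a filled circle and other probe sets as open squares. BATF2 and IRF8 lie beyond the dashed line at 20% lower, whose counterpart is at 25% higher, and the second IRF1 probe set lies on the other side of 0 from the first.

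**Figure D3:**
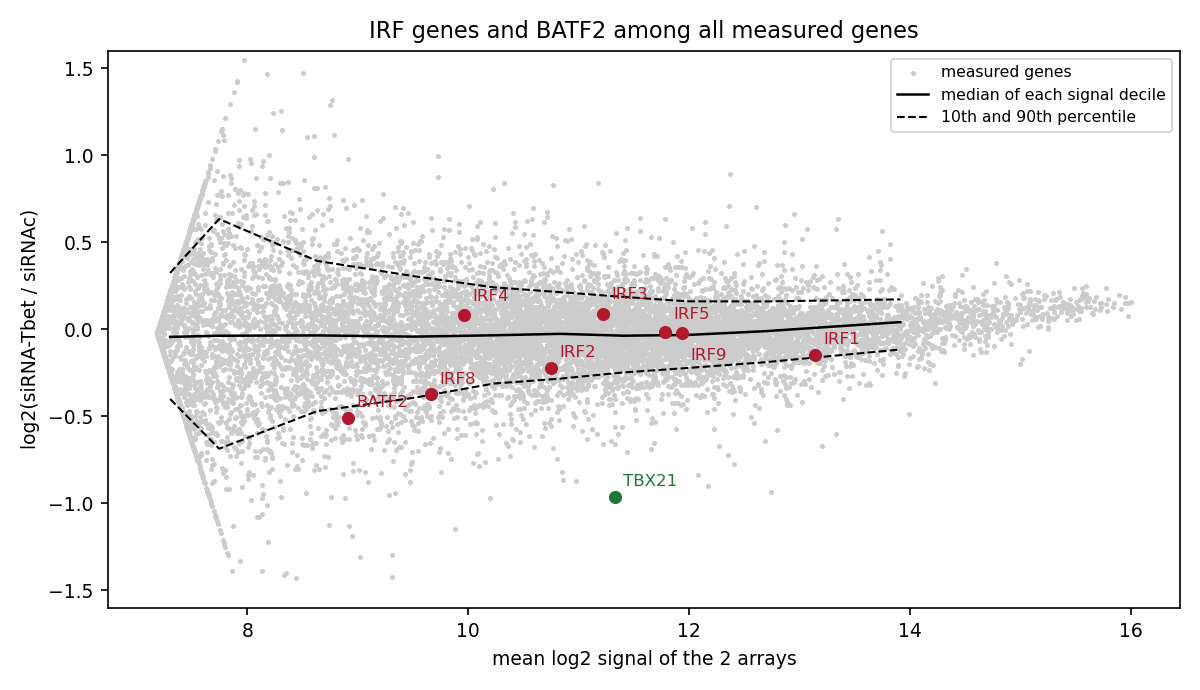
Log2 ratio against mean log2 signal for the measured genes (grey), with the median and the 10th and 90th percentile of each signal decile as lines, the IRF genes and BATF2 in red and TBX21 in green; 1 gene lies outside the plotted range. BATF2 and IRF8, with 101 and 136 genes of like signal below them, lie near the lower percentile line, while no gene of its decile lies below TBX21.

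The genes through which IRFs are made active or act were read from lists chosen with earlier results of these data in view, so their counts are descriptions. A gene is named if it was among the 3 brightest of its list or had the lowest or highest ratio. IRF7, the interferon-induced relative of IRF3, had 3708 with siRNA-Tbet and 3955 with siRNAc, a log2 ratio of -0.093. Of 13 DNA-binding partners and cofactors, 6 were lower and 7 higher, with a median log2 ratio of 0.033. The counting threshold was passed by 0 of the 13, against 11.0% of all measured genes on the lower side and 7.65% on the higher side. BATF, a relative of BATF2 that joins IRF4 on DNA, had 12257 with siRNA-Tbet and 10662 with siRNAc (log2 ratio 0.20), and BATF3 had 4396 with siRNA-Tbet and 5083 with siRNAc (-0.21). Other named partners were the JUN family member JUND (-0.068), the IRF2-binding corepressor IRF2BP2 (-0.013) and the acetyltransferase KAT2B (0.27). Probe sets of JUND and IRF2BP2 lay on both sides of 0. Their log2 ratios ran between -0.20 and 0.091 for the 4 of JUND and between -0.50 and 0.30 for the 5 of IRF2BP2.

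Upstream of IRF3, IRF5 and IRF7 stand kinases, adaptors and sensors. Of 15 measured, 12 were lower and 3 higher with siRNA-Tbet, with a median log2 ratio of -0.14, and 2 passed the counting threshold, both lower. The 2 of 15 lie near the 11.0% of all measured genes past the threshold on that side. TICAM1, the TRIF adaptor that leads to IRF3, had the lowest ratio, with 723 for siRNA-Tbet and 918 for siRNAc (-0.35). IFIH1, the RNA sensor MDA5 and the other gene past the threshold, was named after its values were seen; it had 5706 with siRNA-Tbet and 7239 with siRNAc (-0.34), with 3 of 3 probe sets lower. The adaptor MYD88 had 9637 with siRNA-Tbet and 10081 with siRNAc (-0.065), IRAK1 and TANK had log2 ratios of -0.19 and -0.17, and TRAF6, at the other end, had 0.16. The directions of IRAK1 and TANK depend on the probe set, with 1 of 2 lower for IRAK1 and 3 of 4 lower for TANK. Over the second brightest probe set of the 12 genes with such a set, the median was 0.026, with 5 of the 12 lower.

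Proteins that regulate IRF activity or stability had a median log2 ratio of -0.032 over 7 genes, 4 lower and 3 higher. LYN, a kinase that restrains IRF5, had 21149 with siRNA-Tbet and 20907 with siRNAc (0.017), and 1 of its 3 probe sets was lower. The ubiquitin ligases STUB1 and FBXW7 had -0.12 and -0.22, and TRIM28 had 0.058. Interferons, their receptors and the JAK kinases had a median of 0.031 over 8 measured genes, 3 lower and 5 higher. IFNGR1, a chain of the interferon-γ receptor, had 9916 with siRNA-Tbet and 8977 with siRNAc (0.14), JAK1 had 0.025 and JAK2 had 0.30. The directions of these 3 genes depend on the probe set. Log2 ratios ran between -0.67 and 0.32 for the 3 IFNGR1 probe sets. They ran between -0.15 and 0.15 for the 4 of JAK1 and between -0.12 and 0.32 for the 3 of JAK2. IFNA1 and IFNB1 were below the array medians on both arrays.

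Target genes of ISGF3, the complex that holds IRF9, were lower with siRNA-Tbet while IRF9 itself was nearly equal. All 20 measured targets were lower and 0 were higher on the chosen probe sets (19 of 20 lower after median scaling), with a median log2 ratio of -0.30, or 18.9% lower, and 8 of the 20 passed the counting threshold. Over all measured genes 53.7% were lower and 11.0% passed the threshold on the lower side. IFIT2, an antiviral protein, had the lowest ratio, with 2532 for siRNA-Tbet and 4084 for siRNAc (-0.69). EPSTI1 had the highest, with 15002 for siRNA-Tbet and 15050 for siRNAc (-0.0046), and the 3 brightest genes, CMPK2, RSAD2 and IFIT3, had -0.042, -0.039 and -0.16. Signals above 10000 on either array belonged to 6 of these genes with a median of -0.084, and the 14 others had a median of -0.34. Whether fluorescence was compressed at such signals was not tested. Over every measured probe set of the 20 genes, 26 were lower and 4 were higher, the second probe sets of RSAD2 and EPSTI1 being among the higher ones with 0.096 and 0.24. On the second brightest probe sets alone, 5 of 9 genes were lower, with a median of -0.12. One of the 20, MX1, was below the array median with siRNA-Tbet (60.9) and not with siRNAc (178), so it was at least 1.24-fold lower.

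Target genes of IRF1 had a median near 0; its difference from the ISGF3 list was not tested. Of 15 measured, 8 were lower and 7 higher, with a median log2 ratio of -0.017, and 3 passed the counting threshold, all on the lower side, where 11.0% of all measured genes passed it, against 7.65% on the higher side. The split moved with the processing: 11 of 15 were lower after quantile normalization or removal of the trend of ratio on signal, 10 of 15 with the median over probe sets and 6 of 15 after median scaling. Over every measured probe set of the 15 genes, 20 were lower and 12 were higher. The brightest were B2M, GBP1 and PSMB9, genes of antigen presentation and cell-autonomous defence. B2M had 56208 with siRNA-Tbet and 52022 with siRNAc (0.11), GBP1 had 38993 with siRNA-Tbet and 38874 with siRNAc (0.0044), and PSMB9 had 28136 with siRNA-Tbet and 28477 with siRNAc (-0.017). IL15, a growth factor for natural killer cells, was at the low end with 233 for siRNA-Tbet and 426 for siRNAc (-0.87), and both of its probe sets were lower. IDO1 and CASP1, the other genes past the threshold, were named after their values were seen. IDO1 had 256 with siRNA-Tbet and 405 with siRNAc (-0.66) on 1 probe set. CASP1, a brighter gene, had 6198 with siRNA-Tbet and 8093 with siRNAc (-0.38), with 5 of 5 probe sets lower. The 7 genes above 10000 had a median of 0.030 and the 8 others a median of -0.21, of which 6 were lower. In both lists the genes of high signal thus had the smaller differences, as did measured genes in general. Of all genes in the brightest of the 10 signal bins, 0.41% passed the counting threshold on the lower side. In the dimmer bin that holds BATF2, 20.1% did. After quantile normalization the median of the IRF1 list was -0.092, and it was -0.086 with the trend of ratio on signal removed.

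**Figure D4:**
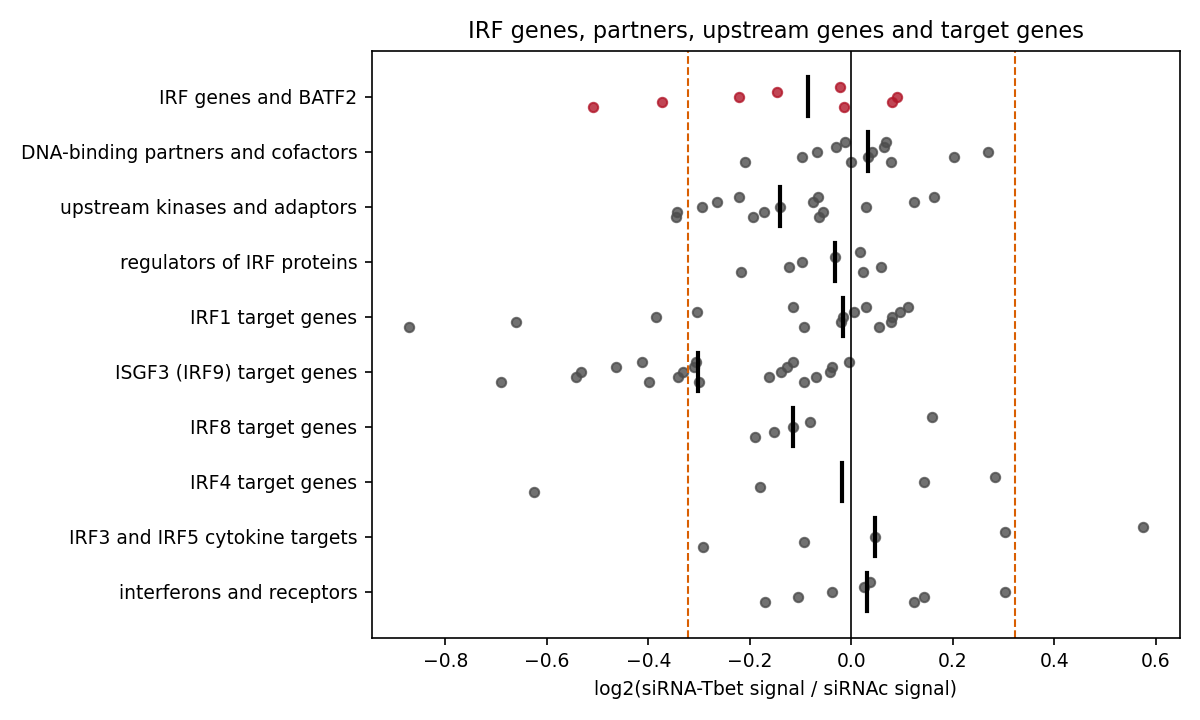
Log2 ratio of siRNA-Tbet over siRNAc for the measured genes of each list, 1 point per gene, with the list's median as a black bar and the counting threshold as dashed lines. The 20 ISGF3 targets lie below 0 (19 of 20 after median scaling) with a median of -0.30, while the IRF genes and BATF2 (red) have a median of -0.085 and the IRF1 targets -0.017.

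The other target lists were short. Of 5 measured IRF8 targets, 4 were lower and 1 higher, with a median log2 ratio of -0.11. With the median over probe sets, 3 of the 5 were lower. The counting threshold was passed by 0 of the 5, against 11.0% of all measured genes on the lower side and 7.65% on the higher side. Among these targets the cathepsins CTSC and CTSS had -0.081 and -0.19. PML, the scaffold of nuclear bodies, had -0.15, and FANCF, a DNA repair gene, had 0.16. Of the measured probe sets, 3 of 4 were higher for CTSC, 0 of 3 for CTSS, 3 of 9 for PML and 2 of 2 for FANCF. The IRF4 targets were split, with PRDM1, a repressor needed for plasma cells, at 357 for siRNA-Tbet and 551 for siRNAc (-0.62, with 2 of its 3 probe sets higher) and MYC at 35926 for siRNA-Tbet and 29515 for siRNAc (0.28), while BCL6 had -0.18 and XBP1 had 0.14 on its brighter probe set and -0.87 on the other. Of 5 measured cytokine targets of IRF3 and IRF5, 2 were lower and 3 higher. IL23A had 218 with siRNA-Tbet and 113, below the array median, with siRNAc, so its log2 ratio of 0.57 is a lower bound. Log2 ratios were 0.30 for IL6, -0.29 for TNF, 0.047 for CCL5 and -0.093 for CXCL10.

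The ISRE core was found in windows of 12 of the 15 ISGF3 targets with a window and of 9 of the 10 IRF1 targets with a window. It was in 3.57% of all windows and, with 1 window per gene at the annotated gene start, in 3.67%. A target counted if any of its windows held a match, so the units differ. Stretches of 60 bases are printed for 4 ISGF3 targets picked for their ratios and for holding a match, IFIT1 and HERC5 with log2 ratios of -0.53 and -0.54, and RSAD2 and EPSTI1 with -0.039 and -0.0046. Each is written 5′ to 3′ on the gene's strand in build GRCh38.p14, with ISRE core matches in capitals. They lie at chr10:89392482-89392541 (plus strand), chr4:88456969-88457028 (plus strand), chr2:6877607-6877666 (plus strand) and chr13:42992257-42992316 (minus strand).
IFIT1: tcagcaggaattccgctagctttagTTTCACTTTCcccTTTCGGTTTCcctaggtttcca
HERC5: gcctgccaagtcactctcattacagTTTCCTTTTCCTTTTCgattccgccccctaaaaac
RSAD2: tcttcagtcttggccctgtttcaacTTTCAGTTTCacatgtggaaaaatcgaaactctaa
EPSTI1: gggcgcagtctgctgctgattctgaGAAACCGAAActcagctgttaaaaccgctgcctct

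In the windows of these genes, 2 matches of IFIT1 lie apart, those of HERC5 overlap each other, and the match of EPSTI1 overlaps a GAS. The IFIT1, HERC5 and RSAD2 matches read on the opposite strand to the gene.

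**Figure D5:**
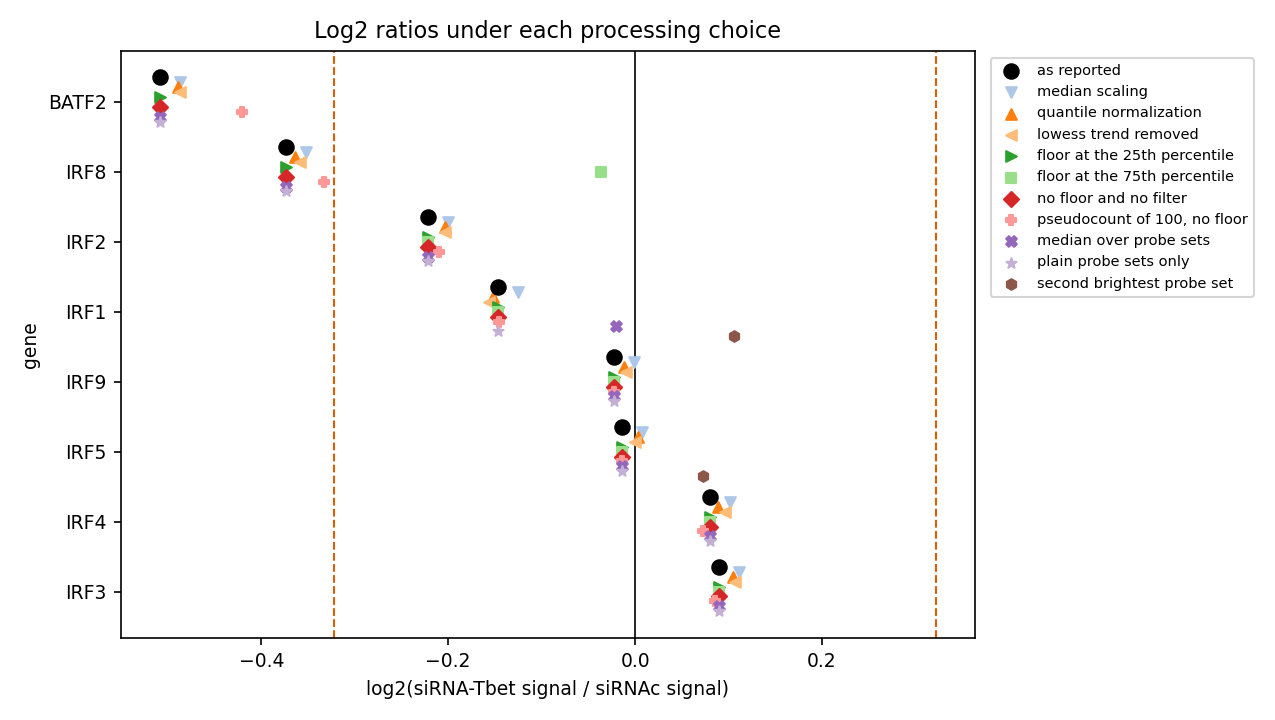
Log2 ratio of siRNA-Tbet over siRNAc of each IRF gene and BATF2 under every processing choice, 1 symbol per choice, with the reported value as a black circle and the counting threshold as dashed lines. BATF2 stays between -0.51 and -0.42, IRF8 moves to -0.036 with the floor at the 75th percentile, and IRF1 moves to 0.11 on its second probe set.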

How the data were processed

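The 2 arrays, 1 per group, were Affymetrix 3' expression arrays of biotinylated cRNA from 1 µg of total RNA, per the labels' protocols. The deposited table holds a linear signal intensity for each probe set and array, which the authors made with MAS5 (version not stated), per the submitters' processing notes. Trimmed means (2% at each end) were 1000.1 on both arrays. MAS5 subtracts mismatch signal, which makes dim values noisy. Here Python 3.11.15 with pandas 2.3.3 and statsmodels 0.14.6 (lowess) was used. Gene names came from the platform annotation, updated through Entrez numbers to RefSeq (41043 of 41097 with 1 gene matched); 1801 with several genes were left out and 11777 are unnamed here. Values below an array's median were raised to it before log2 ratios were taken. Each gene was read from its probe set of highest mean log2 signal, avoiding the suffix _x_at where possible. "Like signal" means the same of 10 equal bins of measured genes by mean log2 signal. With 1 array per group no test was run. Genes named were all 8 of the set, TBX21, IFNG, marker genes, and of each list the 3 brightest and the lowest and highest by ratio; exceptions are stated. The genes examined and the lists were chosen with earlier results of these data known. The code was tested on simulated data. Lists omit genes without a named probe set, which were not analysed here.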

Additional observations from a re-analysis of the deposited data

How the results depend on the processing

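In all, 331 values were recomputed under 10 alternative settings and other folds. Of these, 291 moved by less than the technical spread (counts, by at most 1.5 times) and 40 moved further. For a median over genes, that spread was the genes' median technical SD divided by the square root of their number. The log2 ratios past the counting threshold were those of BATF2, IRF8 and TBX21, and 0 changed sign. Each of these genes has 1 measured probe set, so the choice of probe set could not change its sign. BATF2 ran between -0.51 and -0.42 and is not measured with a floor at the 75th percentile; IRF2 ran between -0.22 and -0.20, IRF3 between 0.086 and 0.11, IRF4 between 0.073 and 0.10, and IRF9 between -0.023 and -0.0012. IRF1 was -0.020 with the median over probe sets and 0.11 on its second probe set. IRF8 was -0.036 with a floor at the 75th percentile, since its siRNA-Tbet signal was raised to that floor. The number of the 8 genes past the counting threshold on the lower side was 0 with that floor, 0 on second probe sets (2 genes only, of which 0 were lower, median 0.089), 0 at 1.5-fold and 0 at 2-fold. On second probe sets the medians were -0.12 for ISGF3 targets (5 of 9 lower), -0.075 for IRF1 targets, -0.27 for IRF4 targets, -0.23 for IRF8 targets, 0.15 for interferons and receptors, -0.36 for regulators and 0.026 for upstream genes. With the median over probe sets they were -0.23 for ISGF3 targets, 0.10 for interferons and receptors, -0.12 for regulators and -0.064 for upstream genes. With plain probe sets they were -0.055 for IRF1 targets, 0.22 for IRF3 and IRF5 cytokine targets, -0.18 for IRF4 targets, -0.10 for interferons and receptors and -0.075 for upstream genes. With the floor at the 75th percentile they were 0.14 for IRF4 targets and -0.075 for upstream genes. The IRF1 target median was -0.092 after quantile normalization and -0.086 with the lowess trend (span 0.3) removed. The cause of the moves in these list medians was not tested, and some settings also left fewer genes. The share of measured genes past the counting threshold on the lower side was 19.0% with a floor at the 25th percentile, 22.5% with no floor or filter and 4.57% with a floor at the 75th, and the shares higher were 17.7%, 21.0% and 2.94%. No paired analysis was possible because each group holds 1 array. Low signal limits BATF2 most (technical SD 0.34), and a single array per group limits every value.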
